A study of Mus musculus with 9 samples.

Results

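Of the 10 genes of branched-chain amino acid breakdown chosen by symbol (Bcat2, Bckdha, Bckdhb, Dbt, Bckdk, Ppm1k, Ivd, Hibadh, Mccc1 and Mccc2), 9 were found among the 22851 genes of the heart count table, and all 9 passed the low-count filter in every comparison. Ppm1k, which encodes the phosphatase of the pathway, was not analysed here. RNA of the myocardium was sequenced from male C57BL/6 mice (C57BL/6J in the study's methods) aged 6 to 8 weeks at the start, in 3 groups of 3 libraries. CK mice received citrate buffer. DCM mice received a single injection of streptozotocin at 180 mg/kg, which destroys insulin-producing cells, and were kept for 12 weeks as a model of type 1 diabetes. SPM mice received the same streptozotocin and, as a daily dose of 1 mg/kg over the preceding 2 weeks and then on alternate days up to week 12, the polyamine spermine. No group received spermine alone, so SPM differed from CK by both agents. The methods describe the libraries both as individual and as mixed hearts, so p-values measure the spread between libraries, which may be pools.

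Leucine, isoleucine and valine are the branched-chain amino acids, and heart muscle is among the tissues that oxidise them. Their amino group is first moved by the transaminase BCAT2, and the resulting keto acids are then oxidised by the branched-chain keto acid dehydrogenase complex, whose E1 part is made of BCKDHA and BCKDHB, whose E2 core is DBT and whose E3 part, DLD, is shared with other dehydrogenases. The kinase BCKDK switches the complex off by phosphorylating E1, and the phosphatase PPM1K switches it on. Beyond the complex the carbon chains separate, so that IVD, MCCC1 and MCCC2 serve leucine and HIBADH serves valine.

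Total counts per library lay between 29901300 and 39718680, and of these the share of mitochondrial transcripts was 13.7% to 16.2% in the CK libraries, 15.5% to 18.9% in the DCM libraries and 21.0% to 21.1% in the SPM libraries. The 6 cardiomyocyte markers in the table were present in every library, and their summed level in normalized CPM (counts scaled to library size) was 40383 to 45231 in the CK libraries, 38413 to 45448 in the DCM libraries and 33527 to 38376 in the SPM libraries. None of the 5 retina markers in the table exceeded 0.967 CPM, although the extraction protocol deposited with the libraries speaks of retinas. SPM replicate 2 differed from the other libraries in how its counts related to those of its own group. For 66.7% of 14587 genes its value was intermediate between SPM replicate 1 and SPM replicate 3, against 15.5% to 40.5% for the other libraries. Of the 2656 genes with no count in SPM replicates 1 and 3, only 1.13% had a count in it, against 15.6% to 35% for the others. Whether it is a library independent of SPM replicates 1 and 3 was not tested. If it is not, the p-values of SPM comparisons that include it are too small. The counts of called pathway genes in the SPM comparisons are therefore also given without that library. Values of single genes, ratios, marker lists and the likeness search include it unless stated otherwise.

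Promoter sequences were found for 8 of the 9 genes in the RefSeq table of the GRCm38.p6 build, with none for Dbt. They were searched because several of these genes were lower together in SPM, and each covers the 250 bases before the start site nearest to the annotated gene start. Printed below are Ivd, Bckdhb and Bckdk, which fell against DCM, and Hibadh, which was not called as tested. Bcat2 and Bckdha, which fell and hold no CCAAT, are not printed, nor are Mccc1 and Mccc2. Capitals mark CCAAT, searched on both strands, so ATTGG is its other strand. Ivd lies on the plus strand (chr2:118861744-118861993), as do Bckdhb (chr9:83924887-83925136) and Bckdk (chr7:127903823-127904072), while Hibadh lies on the minus strand (chr6:52640301-52640550).
Ivd: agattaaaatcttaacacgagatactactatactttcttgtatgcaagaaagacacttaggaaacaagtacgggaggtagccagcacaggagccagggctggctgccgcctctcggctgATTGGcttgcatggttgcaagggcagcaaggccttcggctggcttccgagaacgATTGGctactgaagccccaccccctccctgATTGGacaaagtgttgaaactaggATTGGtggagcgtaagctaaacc
Bckdhb: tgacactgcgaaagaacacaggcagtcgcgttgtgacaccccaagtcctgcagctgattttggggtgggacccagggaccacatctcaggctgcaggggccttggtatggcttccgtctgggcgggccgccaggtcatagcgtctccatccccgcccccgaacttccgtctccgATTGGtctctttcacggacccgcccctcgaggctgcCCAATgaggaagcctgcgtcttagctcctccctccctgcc
Bckdk: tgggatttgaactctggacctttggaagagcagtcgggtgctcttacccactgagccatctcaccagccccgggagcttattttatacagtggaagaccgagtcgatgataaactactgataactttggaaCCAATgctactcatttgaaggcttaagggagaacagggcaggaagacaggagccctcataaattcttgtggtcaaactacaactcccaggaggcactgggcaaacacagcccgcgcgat
Hibadh: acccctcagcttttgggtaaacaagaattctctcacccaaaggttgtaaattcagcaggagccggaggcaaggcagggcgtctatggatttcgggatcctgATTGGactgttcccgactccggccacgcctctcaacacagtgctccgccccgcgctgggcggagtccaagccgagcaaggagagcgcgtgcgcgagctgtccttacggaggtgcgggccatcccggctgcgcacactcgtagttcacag

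The Ivd window held 4 matches to CCAAT, Mccc1 and Mccc2 held 3 each, Bckdhb held 2, and Bckdk and Hibadh held 1 each, whereas Bcat2 and Bckdha held none. CCAAT thus occurred in 6 of the 8 windows, and in 33.8% of all 32851 promoters of the table. CACCC, the core of the sites bound by Krüppel-like factors, occurred in 7 of the 8 windows and in 52.0% of all promoters. GGGCGG occurred in 3 of the 8 windows and in 32.7% of all promoters, and CACGTG in 1 of the 8 and in 6.02% of all. Genes that fell in SPM and genes that did not pass the test both had windows with CCAAT, and both Bcat2 and Bckdha, which fell, had windows without it. The Bckdha window (chr7:25658762-25659011, minus strand) lies mostly inside the annotated gene, which starts at 25658981. Bases further upstream of Bckdha were not searched. The Ivd and Hibadh windows also reach into their annotated genes in part.

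The first question was how strongly each gene was expressed in hearts of CK mice. Levels between genes were compared as FPKM, which scales a count by transcript length and library size, here with the length of the longest coding transcript. Ivd (162 ± 13.8, SD, n = 3) and Hibadh (158 ± 2.36) were the highest and did not differ beyond their spread. They were followed by Bckdha (76.3 ± 4.13), Bcat2 (61.5 ± 2.76), Bckdk (39.9 ± 1.77), Bckdhb (34.7 ± 0.837) and Mccc2 (33.2 ± 1.56), of which the last pair lay within 1 SD of each other. Dbt (14.1 ± 2.05) and Mccc1 (5.30 ± 0.492) were the lowest. The deposited FPKM of Hibadh and Mccc1 are 3.33 and 2.75 times lower than this, because the length used there equals that of a longer transcript, annotated in GENCODE as a retained intron.

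**Figure D1:**
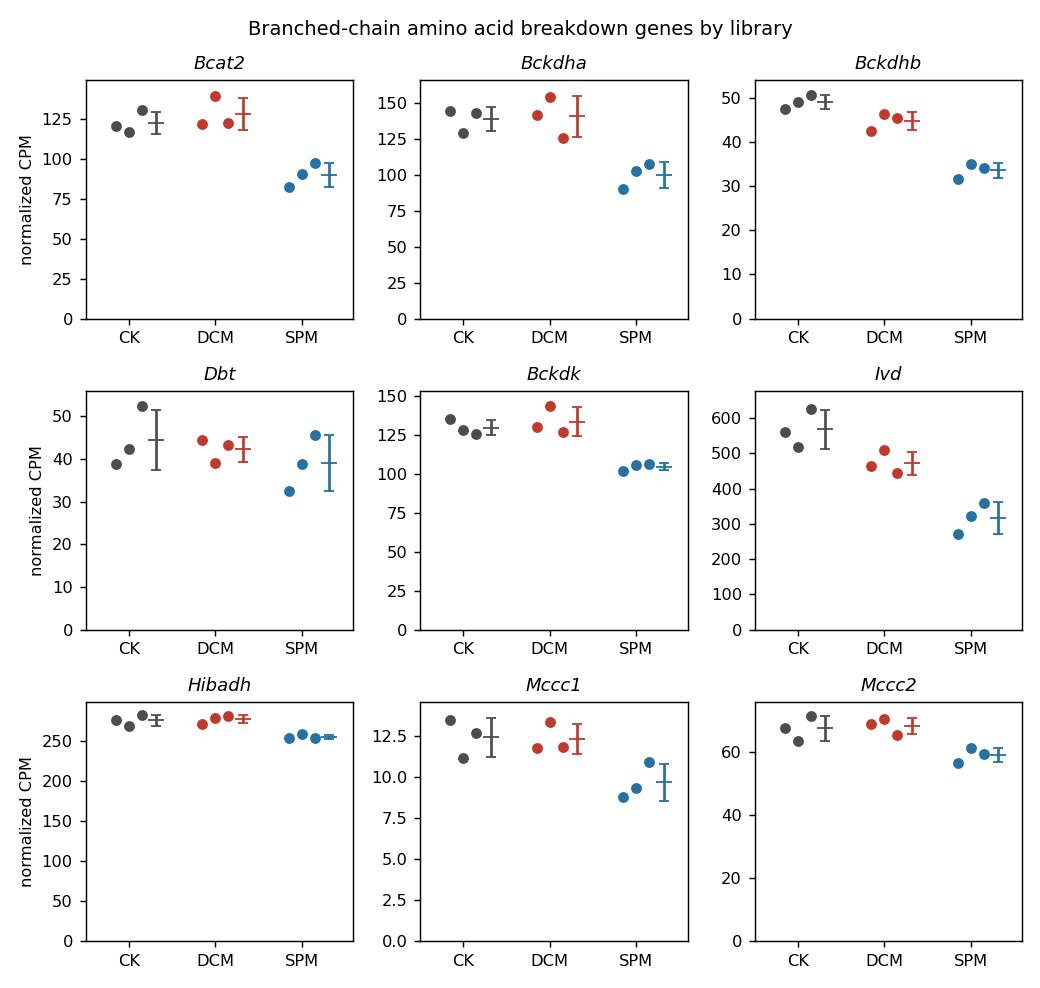
Normalized CPM (y axis, from 0) of each of the 9 genes in the 3 libraries of CK, DCM and SPM (points), with the group mean and SD beside them. SPM libraries lie below all CK and DCM libraries for every gene but Dbt.

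DCM compared to CK tested the effect of diabetes. The log2 fold changes of branched-chain amino acid breakdown genes were small, and 0 of the 9 genes passed the limit of an adjusted p of 0.05 (Benjamini-Hochberg, from the quasi-likelihood test of edgeR, as all adjusted p below unless another tool is named), against 10.4% of all 14402 genes tested. Their log2 fold changes lay between -0.27 and 0.06, with a median of 0.01 against -0.00 over all genes tested. At an unadjusted p under 0.05 the count was 1, which was Ivd, against 24.6% of all genes, while DESeq2 called 1 (Ivd; 7.84% of all genes) and limma on log2(FPKM + 0.1) called 2 (Bckdhb and Ivd; 11.4%).

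SPM compared to DCM tested the effect of spermine in mice given streptozotocin. Spermine began before streptozotocin, so an effect on the heart cannot be told apart here from an effect on the diabetes itself. Here 5 of the 9 genes fell, namely the transaminase Bcat2, both E1 genes Bckdha and Bckdhb, the kinase Bckdk and the leucine enzyme Ivd, by 0.35 to 0.57 on the log2 scale, against 7.76% of all 14493 genes called lower and 16.6% called in either direction. No gene reached the 1.5-fold limit for a differentially expressed gene (DEG), which 3.59% of all genes did. All 9 had a lower value in SPM, with a median log2 fold change of -0.35 against 0.01 over all genes, and the SPM libraries lay below the DCM libraries without overlap for 8 of 9, against 19.5% of all genes. The calls rested on few libraries. Without SPM replicate 2, 0 of 9 passed the test (0.486% of all genes called; smallest adjusted p among the 9 of 0.0520), although 6 had an unadjusted p under 0.05 (22% of all genes) and the median log2 fold change was -0.36. Leaving out DCM replicate 2 also gave 0 of 9 (1.29% of all genes called, smallest adjusted p of 0.0531), with 7 at an unadjusted p under 0.05 (27.2% of all genes). With the 8 libraries other than SPM replicate 2 in a single fit, chosen after seeing the data, Bcat2 and Bckdhb passed (adjusted p = 0.0496 for both; 0.539% of all genes).

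SPM compared to CK, where both agents differ, gave 6 of 9 lower. The same 5 genes fell and so did Mccc1, against 14.3% of all 14574 genes called lower and 27.4% in either direction, with Ivd the only DEG (9.21% of all genes). The 9 values were all lower and had a median of -0.37 on the log2 scale, against 0.00 over all genes, and libraries did not overlap for 8 of 9 (23.1% of all genes did not overlap and were lower). Without SPM replicate 2, 5 of 9 passed, against 10.4% of all genes, and Mccc1 did not (adjusted p = 0.175). The comparisons share libraries pairwise, DCM serving the first and the second of them, so they are not independent of each other.

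**Figure D2:**
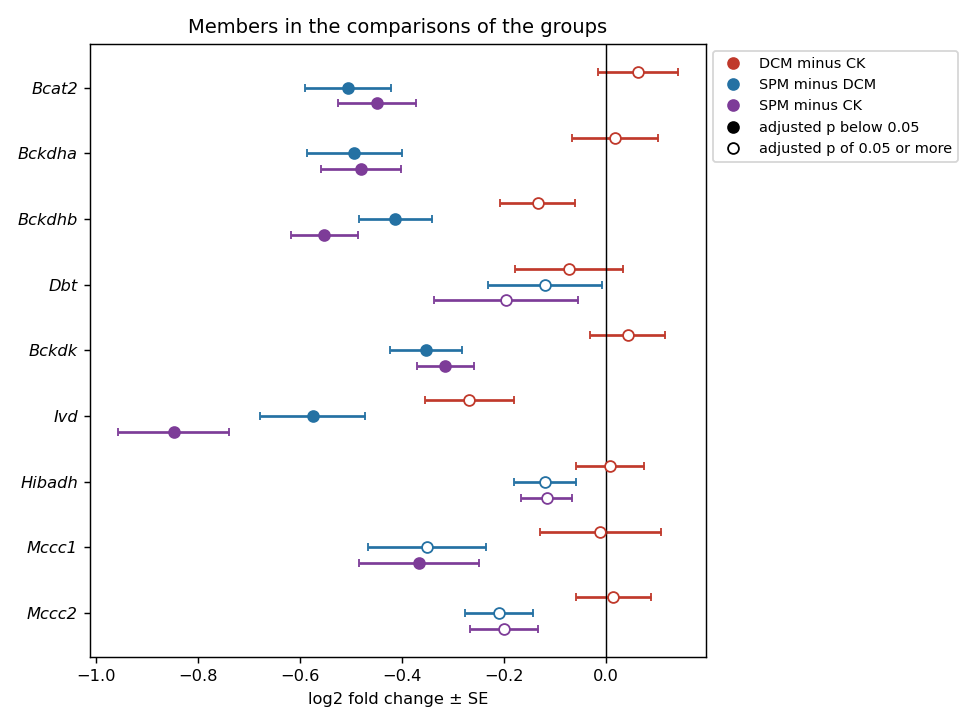
Log2 fold change (x axis) with its SE from edgeR for each gene in the comparisons DCM minus CK, SPM minus DCM and SPM minus CK. Filled points passed an adjusted p of 0.05; both SPM comparisons lie left of 0 for all 9 genes, and the DCM minus CK values lie between -0.27 and 0.06 with none filled.

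Bcat2 (chr7:45570153-45589711, plus strand, GRCm38), the mitochondrial transaminase that takes the first step, stood at 121, 117 and 130.3 normalized CPM in CK, at 122, 139.6 and 122 in DCM and at 82.4, 90.8 and 97.2 in SPM. The SPM libraries were the 3 lowest, while CK and DCM overlapped. SPM was lower than DCM by a log2 fold change of -0.51 (SE 0.084, adjusted p = 0.0107) and lower than CK by -0.45 (adjusted p = 0.00449). DCM minus CK was 0.06 (SE 0.078, adjusted p = 0.687).

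Bckdha (chr7:25629946-25658981, minus strand) encodes the alpha subunit of E1, which carries the phosphorylation site. It was measured at 144, 129 and 143 normalized CPM in CK, at 141, 154 and 126 in DCM and at 90.0, 102 and 107 in SPM, again with all SPM libraries below the rest. The log2 fold change of SPM was -0.49 (SE 0.092, adjusted p = 0.0130) against DCM and -0.48 (adjusted p = 0.00391) against CK, with 0.02 for DCM minus CK (adjusted p = 0.932). B3gnt8, on the opposite strand, covers 61.7% of the exon bases of Bckdha, and the library kit named in the labels does not mark strand, so that reads from the shared bases cannot be told apart. The count of B3gnt8 was at most 5.13% of that of Bckdha in any library.

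Bckdhb (chr9:83925145-84124240, plus strand), the beta subunit of E1, held 47.5, 49.1 and 50.5 normalized CPM in CK, 42.4, 46.4 and 45.3 in DCM and 31.7, 34.9 and 34.1 in SPM. Each group lay below the one before it, without overlap. The step from CK to DCM did not pass the test (log2 fold change -0.13, SE 0.073, adjusted p = 0.290), and in DCM compared to CK 14.8% of all genes were lower without overlap. SPM minus DCM was -0.41 (SE 0.072, adjusted p = 0.0111), and SPM minus CK was -0.55 (adjusted p = 0.00126), the smallest adjusted p of the 9 genes.

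Dbt (chr3:116513070-116549981, plus strand), the E2 core, was the most variable of the 9 genes relative to its level in CK and in SPM. Its values were 38.9, 42.4 and 52.3 normalized CPM in CK, 44.5, 39.0 and 43.4 in DCM and 32.6, 38.8 and 45.6 in SPM. The groups overlapped throughout. SPM minus DCM was -0.12 (SE 0.11, adjusted p = 0.482) and SPM minus CK was -0.20 (SE 0.14, adjusted p = 0.323). Dbt has a low GC content, and a correction for GC, described further on, changed the second value to -0.43 (adjusted p = 0.0379), which passed. With GC content of the longest transcript it was -0.41 and also passed (adjusted p = 0.0465). Without SPM replicate 2 that correction gave -0.40, which did not pass (adjusted p = 0.137). The value of Dbt against DCM did not pass with either correction.

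Bckdk (chr7:127904082-127910221, plus strand), the kinase that inactivates the complex, was at 135, 129 and 126 normalized CPM in CK, at 130.2, 144 and 127 in DCM and at 102, 106 and 107 in SPM. SPM libraries were the lowest and lay close together (SD 2.48). The log2 fold change was -0.35 (SE 0.070, adjusted p = 0.0149) against DCM and -0.32 (adjusted p = 0.00521) against CK. The transcripts of the kinase and of its target subunit were lower together, and the ratio of their FPKM, Bckdk to Bckdha, was 0.524 ± 0.0318 in CK, 0.533 ± 0.0275 in DCM and 0.588 ± 0.0397 in SPM, with overlapping libraries in DCM and SPM.

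Ivd (chr2:118861954-118882909, plus strand), isovaleryl-CoA dehydrogenase of the leucine branch, showed the largest change of the 9 genes in both SPM comparisons as tested. It was at 561, 517 and 627 normalized CPM in CK, at 462, 508 and 444 in DCM and at 270.0, 322 and 359 in SPM. The 3 groups did not overlap, with CK the highest and SPM the lowest. DCM minus CK was -0.27 (SE 0.087) with an adjusted p of 0.0741. In that comparison Ivd passed with DESeq2 (adjusted p = 0.0258), the low-count filter left out (0.0243), library totals alone (0.0142), limma (0.0235) and GC correction on coding transcripts (0.0429). It did not pass with RLE normalization (0.0888), a filter of 1 CPM (0.0717), all 9 libraries in a single fit (0.119) or a replicate block (0.136). Nor did it pass with GC content of the longest transcript (0.05002) or with any library left out (0.0605 to 0.273). Against DCM, SPM fell by 0.57 on the log2 scale (SE 0.103, adjusted p = 0.0119), and against CK it fell by 0.85 (SE 0.109, adjusted p = 0.00155), a fold of 0.556.

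Mccc1 (chr3:35959312-36000678, minus strand) and Mccc2 (chr13:99948530-100015639, minus strand) encode both subunits of methylcrotonyl-CoA carboxylase, the leucine step after IVD. Mccc1 was at 13.5, 11.2 and 12.7 normalized CPM in CK, 11.8, 13.4 and 11.9 in DCM and 8.78, 9.36 and 10.9 in SPM, and Mccc2 was at 67.6, 63.7 and 71.5 in CK, 68.8, 70.6 and 65.4 in DCM and 56.5, 61.1 and 59.5 in SPM. For both genes the SPM libraries lay below all others. Mccc1 passed the test against CK (log2 fold change -0.37, SE 0.118, adjusted p = 0.0478) and had a value of -0.35 against DCM (adjusted p = 0.0615), whereas Mccc2 had -0.20 (adjusted p = 0.0525) and -0.21 (adjusted p = 0.0556). Mccc1 rests on 285 to 469 counts per library, and Gm15952, which overlaps it on the opposite strand by 94 bases, had 51 to 206, so reads of Mccc1 cannot be fully told apart. Its call against CK was lost with no low-count filter, with the GC correction on coding transcripts, with DESeq2 (adjusted p = 0.0643) and without CK replicate 1 (0.116), CK replicate 3 (0.102), SPM replicate 1 (0.128) or SPM replicate 2 (0.175).

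Hibadh (chr6:52546228-52640389, minus strand), 3-hydroxyisobutyrate dehydrogenase of the valine branch, varied least. It was at 277, 269 and 284 normalized CPM in CK, at 272, 279.8 and 282 in DCM and at 255, 259 and 254 in SPM. SPM libraries were below the others without overlap, but by little. SPM minus DCM was -0.12 (SE 0.061, adjusted p = 0.194) and SPM minus CK was -0.12 (SE 0.050, adjusted p = 0.116). With the GC correction on coding transcripts SPM minus CK became -0.17 (adjusted p = 0.0387) and passed. With GC content of the longest transcript, the retained intron of 39.5% GC, both comparisons passed, at -0.45 against DCM (adjusted p = 0.0276) and -0.44 against CK (adjusted p = 0.00783).

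GC content moved with these results. Across 14484 genes, the log2 fold change of SPM minus DCM had a Spearman's rho of -0.502 with the GC content of the longest transcript, a description across genes, which are not independent, and the median log2 fold change was -0.13 for genes of 50% GC or more and 0.26 for genes under 45%. The 5 genes that fell had 50.3% to 57.9% GC in the longest coding transcript. Of the genes not called, Mccc2 had 51.0%, inside that range, Mccc1 had 49.7%, Hibadh had 47.3% and Dbt had 42.1%. A correction that removed each library's trend on GC content of the longest coding transcript, chosen after seeing the data, left all 9 values lower, with a median of -0.35. It kept the calls of Bcat2 (log2 fold change -0.38), Bckdhb (-0.39) and Ivd (-0.53), 3 of 9 against 1.99% of all genes. Bckdha (-0.31, adjusted p = 0.0636) and Bckdk (-0.26, adjusted p = 0.0548) no longer passed. The value of Dbt moved from -0.12 to -0.39 (adjusted p = 0.0767). With GC content taken from the longest transcript of any kind, 5 passed (Bcat2, Bckdhb, Hibadh, Ivd and Mccc1; 2.93% of all genes), and without SPM replicate 2 under that correction 0 of 9 did, as did 0 of all 14819 genes, although all 9 had an unadjusted p under 0.05 (13.5% of all genes). For SPM minus CK the correction on coding transcripts gave 7 of 9 called, against 20.7% of all genes. Bcat2, Bckdha, Bckdhb, Bckdk and Ivd were still called, Dbt and Hibadh were called in addition, and Mccc1 was not (adjusted p = 0.0606). With GC content of the longest transcript 8 of 9 were called, all but Mccc2, against 21.4% of all genes.

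**Figure D3:**
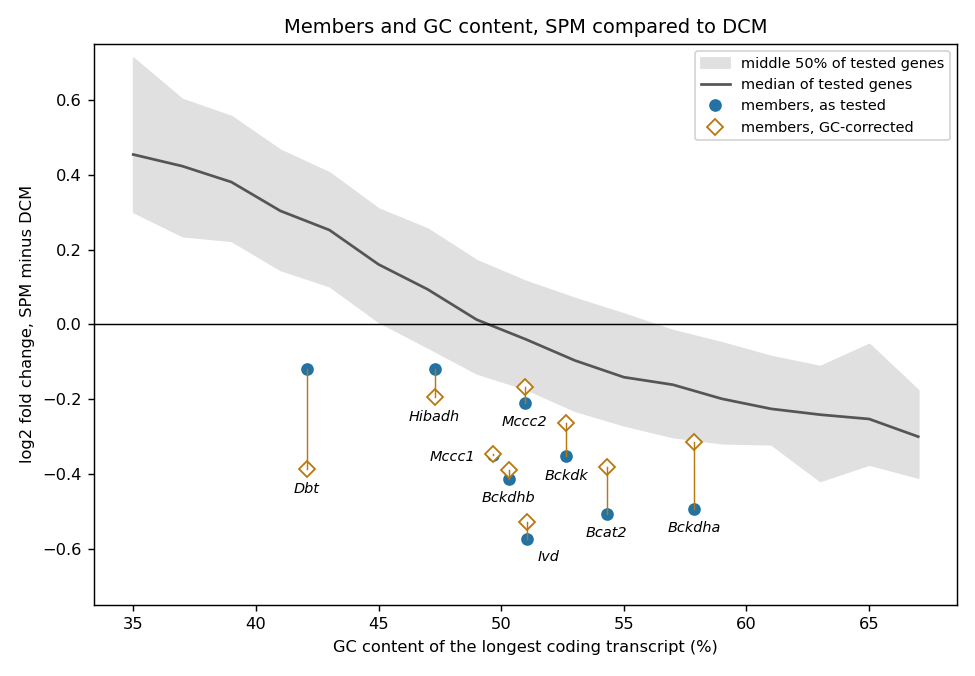
Log2 fold change of SPM minus DCM (y axis) against GC content of the longest coding transcript (x axis) for the 9 genes, as tested (circles) and after the GC correction (diamonds), with the median and middle 50% of all tested genes in bins of GC content. All 9 genes lie below 0 and, as tested, below the median line; the corrected values lie between -0.53 and -0.17.

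Levels of other cell types and organelles are given beside these falls, and their part in them was not tested. In bulk tissue, fewer cells of a type and less RNA per cell cannot be told apart. None of the 6 cardiomyocyte markers was called in SPM compared to DCM, and their median log2 fold change was -0.15, while in SPM compared to CK 2 of 6 were lower and 1 higher, with a median of -0.10. Their summed level in the SPM libraries (33527 to 38376 normalized CPM) lay below that of every CK library (40383 to 45231) and, narrowly, of every DCM library (38413 to 45448). The highest value of a single marker in any library was 25845, so this sum weighs 1 gene most. Of 11 nuclear genes of mitochondrial content, 2 were higher and 0 lower in SPM compared to DCM, with a median of -0.04, as were 2 higher and 0 lower in SPM compared to CK (median 0.11), and their summed level was 11556 to 12490 normalized CPM in the CK libraries, 12693 to 14205 in the DCM libraries and 12404 to 13683 in the SPM libraries. All 6 adipocyte markers were in the table, at a summed level of 75.4 to 180.2 in the CK libraries, 82.8 to 114 in the DCM libraries and 97.4 to 127 in the SPM libraries. The 6 liver markers summed to 1.78 to 36.8 in the CK libraries, 1.02 to 1.46 in the DCM libraries and 1.07 to 311 in the SPM libraries. All 3 liver markers tested in SPM compared to DCM were higher. In that comparison 3 of 6 macrophage and 2 of 7 fibroblast markers were also higher, and 0 were lower in these lists.

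Of 28 further genes of the pathway (uptake, E3, the remaining steps, electron acceptors and the regulator Klf15), 26 were in the table and 25 were tested. In DCM compared to CK 6 of 25 rose and 0 fell, against 5.28% of all genes called higher, and 3 of the 6 were among the 5 tested genes of uptake and transport. Slc43a2, a transporter of large neutral amino acids, was at 49.1, 45.2 and 45.1 normalized CPM in CK, 73.3, 78.6 and 72.1 in DCM and 40.7, 45.4 and 52.1 in SPM. DCM stood above both other groups, which overlapped. It rose by 0.68 in DCM (log2, SE 0.074, adjusted p = 0.000136) and fell by 0.70 in SPM compared to DCM (SE 0.091, adjusted p = 0.00786), a call that held without SPM replicate 2 (adjusted p = 0.0308) and after the GC correction (adjusted p = 0.0235) but not with both (adjusted p = 0.138).

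Slc43a1, a related transporter, was at 4.24, 4.61 and 5.29 normalized CPM in CK, 8.17, 8.36 and 7.15 in DCM and 9.24, 7.59 and 5.92 in SPM. It rose in DCM compared to CK (0.75, SE 0.155, adjusted p = 0.00944), with SPM overlapping DCM, and this call, like those of Slc43a2 and Klf15 in that comparison, held with each library left out in turn. Klf15, a transcription factor known to promote branched-chain amino acid breakdown in muscle, had 87.8, 79.7 and 94.6 normalized CPM in CK, 109.8, 132 and 127 in DCM and 152, 131 and 110.4 in SPM. It rose in DCM by 0.50 (SE 0.088, adjusted p = 0.00398) and was 0.58 above CK in SPM (adjusted p = 0.00738), and SPM minus DCM was 0.09 (adjusted p = 0.601). Klf15 was called higher than in CK in both groups given streptozotocin. Of the 9 genes, 0 were called in DCM compared to CK (10.4% of all genes) and 6 fell in SPM compared to CK (14.3% of all genes called lower). A link between Klf15 and these genes was not tested.

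Comparing SPM to DCM, 1 of the 25 rose and 6 fell, against 16.6% of all genes called in either direction. Dld, the E3 part, was at 215, 261 and 284 normalized CPM in CK, 239.5, 234 and 275 in DCM and 301, 317 and 326 in SPM. All SPM libraries were above the others. The rise against DCM was 0.33 (SE 0.078, adjusted p = 0.0224), but Dld has 40.6% GC and its value became 0.01 (adjusted p = 0.920) after the GC correction on coding transcripts, and its adjusted p was 0.106 without SPM replicate 2, 0.0755 without DCM replicate 1 and 0.0833 without DCM replicate 2. The ratio of the FPKM of Dld to that of Bckdha was 1.37 ± 0.223 in CK, 1.34 ± 0.262 in DCM and 2.36 ± 0.119 in SPM, without that correction.

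Beyond the complex, Pccb, a subunit of propionyl-CoA carboxylase, was at 206, 184 and 199 normalized CPM in CK, 183, 199.8 and 191 in DCM and 131, 143 and 154 in SPM. It fell by 0.42 against DCM (SE 0.076, adjusted p = 0.0124) and by 0.46 against CK (adjusted p = 0.00348), and its adjusted p against DCM was 0.0415 after the GC correction on coding transcripts, 0.0636 without SPM replicate 2 and 0.0585 without DCM replicate 2. Mmab, of cobalamin handling, fell by 0.38 against DCM (adjusted p = 0.0238), and Echs1, the short-chain enoyl-CoA hydratase, by 0.24 (adjusted p = 0.0317). Mmab did not pass without any 1 of the DCM libraries or without SPM replicate 2 (adjusted p = 0.0528 to 0.0950), nor did Echs1 without DCM replicate 1, DCM replicate 2, SPM replicate 1 or SPM replicate 2 (adjusted p = 0.0599 to 0.161). The GC correction on coding transcripts also ended both calls against DCM, with values of -0.27 for Mmab (adjusted p = 0.123) and -0.21 for Echs1 (adjusted p = 0.0725). Against CK, Mmab fell by 0.37 (adjusted p = 0.0286) and Echs1 by 0.24 (adjusted p = 0.0129). There Echs1 passed with both GC corrections (adjusted p = 0.00996 and 0.0260) but not without SPM replicate 2 (0.0784). Mmab passed with neither correction (0.0810 and 0.0808) and not without SPM replicate 2 (0.0798).

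Comparing SPM to CK, 7 of the 25 rose and 4 fell, against 27.4% of all genes called. Aldh6a1, a dehydrogenase of the valine branch, rose by 1.39 (SE 0.422, adjusted p = 0.0401), but its level was 0.454 to 1.21 normalized CPM in CK and 1.54 to 2.56 in SPM, and Bbof1 on the opposite strand covers 18.6% of its exon bases, with counts up to 150% of its own. That call was lost without CK replicate 2, CK replicate 3, SPM replicate 1 or SPM replicate 2 (adjusted p of at least 0.0860), and after the GC correction on coding transcripts (adjusted p = 0.0992). Without SPM replicate 2 only 4 of the 25 passed, against 10.4% of all genes. Of these 4, 3 rose and 1, Pccb, fell.

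**Figure D4:**
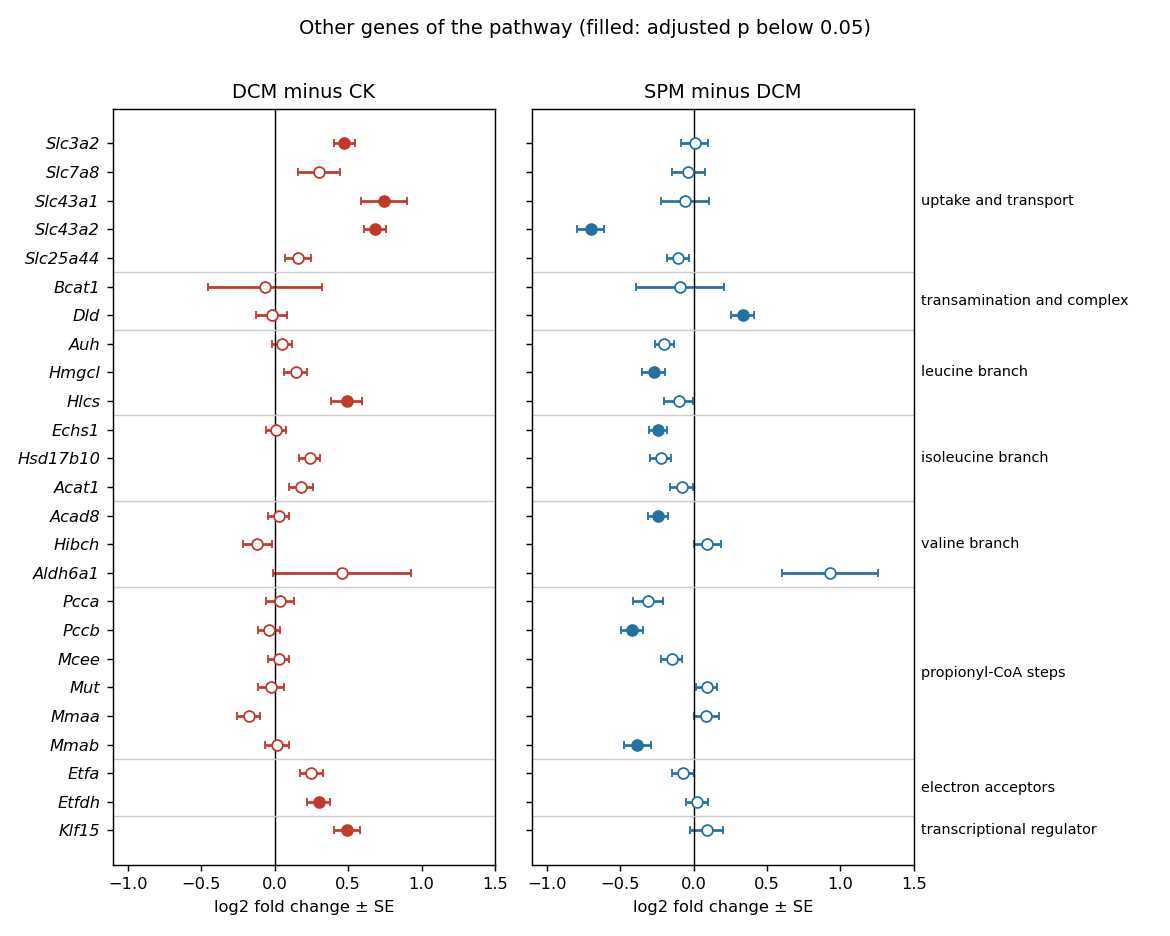
Log2 fold change (x axis) with its SE for the 25 other tested genes of the pathway, grouped by role, in DCM minus CK (left) and SPM minus DCM (right). Filled points passed an adjusted p of 0.05; in DCM minus CK 6 are filled, all above 0, and in SPM minus DCM 1 is filled above 0 and 6 below it.

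The genes whose pattern over the 9 libraries was most like that of Ivd, chosen as reference after its values were seen, were Dffa (Pearson's r = 0.992), Tecr (0.992), Gcdh (0.989), Slc27a4 (0.983) and Clip2 (0.983), out of 14908 genes compared on log2 CPM. Gcdh encodes glutaryl-CoA dehydrogenase, which acts in lysine breakdown. Among the 9 genes, the closest to Ivd was Bckdhb (0.963) and the farthest was Dbt (0.627). These are descriptions over libraries that share the difference between groups.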

How the data were processed

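Members and lists were chosen with earlier results of these data known. The authors deposited whole-number counts per gene and library, and FPKM values, which could be recomputed from those counts with a fixed gene length (largest relative deviation 6.84e-13). The length equalled the longest GENCODE M21 transcript for 97.7% of 22820 genes. The submitters' processing notes name Bowtie 0.12.2, mm8 and mm9 without roles, and the study's methods name fastp. The counting tool is not given in the sources used here. Gene positions are from GENCODE M21 (GRCm38), matched by Ensembl ID.

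Groups were assigned by label and compared in pairs. Each fit used edgeR 4.0.16 (R 4.3.3) on the 6 libraries concerned: filterByExpr, TMM, glmQLFit and glmQLFTest, the quasi-likelihood test, with Benjamini-Hochberg adjustment over all genes tested. A gene was called at an adjusted p of 0.05, and a DEG also had a fold of 1.5. Normalized CPM used TMM over all 9 libraries. The count of a library gives precision for counting error only. Alternatives were DESeq2 1.42.0, limma 3.58.1 on log2(FPKM + 0.1), RLE, library totals alone, other filters, 1 fit of all 9 libraries, a replicate block, GC correction (lowess span 0.3) and each library left out. Fits without SPM replicate 2 in 1 fit of 8 libraries, with GC correction, and with GC of coding transcripts were added after seeing the data. Further genes were named if they were Klf15, DEGs, or among the 3 largest called changes per direction and comparison. The gene for the likeness search was to be the member with the largest called change in DCM compared to CK, and as none was called, Ivd was used. Residuals of libraries with the same number had correlations of -0.0746 to 0.205, against -0.284 to 0.217 for libraries with other numbers. No pairing by number was seen, but residuals centred within groups of 3 libraries cannot exclude it. Fits were tested on simulated data with an assumed spread between libraries, with 50 changed genes per fold. They recovered 2% to 6% of 1.25-fold changes, 22% to 24% of 1.5-fold changes and 74% to 86% of 2-fold changes. Small changes were thus mostly missed in the simulated data. That spread was not set from the 9 genes, so these shares do not give the power for them. Their SD within groups ran from 1.00% of the mean (Hibadh in SPM) to 16.7% (Dbt in SPM). Marker lists of fibroblast, endothelial and macrophage genes were also computed. Python 3.11.15, pandas 2.3.3 and matplotlib 3.10.9 were used for summaries and figures.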

Additional observations from a re-analysis of the deposited data

How the results depend on the processing

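Member values in SPM compared to DCM and to CK kept their direction under every alternative run. In DCM compared to CK, 1 member passed with library totals alone (1873 of 14402 genes called), with no low-count filter (2085 of 22105), with DESeq2 (7.84% of all genes) and with the GC correction on coding transcripts (1967 of 14392). With limma 2 passed (11.4% of all genes). In SPM compared to DCM 5 members passed as reported (16.6% of all genes), 3 with that correction (1.99%), and 2 in the single fit without SPM replicate 2 (0.539%). With GC correction and without SPM replicate 2, 0 passed (0 of 14819 genes), as did 0 with the 1.5-fold limit (3.59%). With each library left out 0 to 6 passed (72 to 2433 genes called), the 0 being without SPM replicate 2 and without DCM replicate 2. Against CK, 6 passed as reported (27.4% of all genes) and 3 with GC correction and without SPM replicate 2 (1144 of 14887 genes). With the 1.5-fold limit 1 passed (9.21%), and with each library left out 5 to 6 did (1544 to 3768 genes called). Of the other genes of the pathway 6 passed in DCM compared to CK (10.4% of all genes), and 2 with the 1.5-fold limit. With each library left out 4 to 7 passed (817 to 1326 genes called). In SPM compared to DCM 7 passed (4 and 3 with the GC corrections on longest and on coding transcripts, 1 in the single fit without SPM replicate 2, 0 with GC correction and without it, 1 with the 1.5-fold limit, 1 to 6 with each library left out, the 1 being without SPM replicate 2 and without DCM replicate 2). Against CK, 11 passed (6 in that single fit, with 2169 of 15222 genes called, 5 with GC correction and without SPM replicate 2, 2 with the 1.5-fold limit, 4 to 10 with each library left out). The shares of all genes in fits named for the members hold here too. The causes of these shifts were not tested.

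Signs turned only for values that had not passed the test. In DCM compared to CK, library totals alone, which shift the median of all genes by -0.09, gave log2 fold changes of -0.0286 (Bcat2), -0.0728 (Bckdha), -0.0492 (Bckdk), -0.0826 (Hibadh), -0.0756 (Mccc2), -0.0797 (Echs1) and -0.0754 (Mmab), and limma gave -0.0293, -0.0759, -0.0494, -0.0822, -0.0751, -0.0794 and -0.0709 in the same order. The GC correction gave -0.00546 (Bckdha), 0.0119 (Mccc1) and 0.00472 (Dld), and on coding transcripts it gave -0.000161 (Bckdha) and 0.00386 (Dld). With each library left out, values ran from -0.00498 to 0.109 for Bcat2, -0.0548 to 0.0988 for Bckdha, -0.160 to 0.0595 for Dbt, -0.0148 to 0.0847 for Bckdk, -0.0108 to 0.0287 for Hibadh, -0.0857 to 0.0519 for Mccc1, -0.0275 to 0.0572 for Mccc2, -0.126 to 0.0703 for Dld, -0.00756 to 0.0260 for Echs1 and -0.0396 to 0.0943 for Mmab. SPM minus DCM of Slc43a1 was 0.0247, 0.0271 and 0.0234 with the GC correction, with that on coding transcripts and with GC correction without SPM replicate 2, and -0.229 to 0.0868 with each library left out, and that of Klf15 was -0.0329 to 0.195. SPM minus CK of Slc43a2 was 0.0847, 0.0796 and 0.0962 with the same 3 corrections and -0.118 to 0.0646 with each library left out.

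With the replicate number as a block, 0, 5 and 5 members passed in DCM compared to CK, SPM compared to DCM and SPM compared to CK, the lost call being Mccc1. Among all genes 1302 of 14402, 2810 of 14493 and 3826 of 14574 were called with that block. The correlations of residuals showed no pairing by replicate number, but they cannot exclude it. The planned ratio of Bckdk to Ppm1k was not run, as Ppm1k was not analysed here. With 3 libraries a group, the falls of Dbt and Hibadh against CK did not pass as reported but passed with both GC corrections, and that of Hibadh also with library totals alone and with limma. With GC correction and without SPM replicate 2, Hibadh passed against CK (adjusted p = 0.0370) and Dbt did not (adjusted p = 0.137).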

Other observations

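Of the electron acceptors of the pathway, Etfa was at 516 to 581 normalized CPM in the CK libraries, 598 to 676 in the DCM libraries and 614 to 619 in the SPM libraries, whereas Etfb, which encodes its partner subunit, held 0 to 4 counts per library. Gm45233, annotated on the same strand, covers 53.0% of the exon bases of Etfb and held 1 to 23 counts.

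In DCM compared to CK, 5 of 7 fibroblast markers fell and 0 rose, while 2 rose and 0 fell in SPM compared to DCM and 2 rose and 4 fell in SPM compared to CK, with summed levels of 2018 to 2117 normalized CPM in the CK libraries, 1362 to 1457 in the DCM libraries and 1618 to 1689 in the SPM libraries. Of 6 macrophage markers, 3 fell and 1 rose in DCM compared to CK and 3 rose in SPM compared to DCM, and 1 rose in SPM compared to CK, with summed levels of 586 to 756, 496 to 573 and 586 to 966 in CK, DCM and SPM. Of 6 endothelial markers, 1 rose and 1 fell in DCM compared to CK and 0 were called in SPM compared to DCM, and 1 rose and 1 fell in SPM compared to CK, with summed levels of 1767 to 1959.8, 1789 to 2054 and 1729 to 1931. Against the background of 10.4% of genes called in DCM compared to CK 16.6% in SPM compared to DCM and 27.4% in SPM compared to CK, these values are given as descriptions.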
